A study of Mus musculus with 2 samples.

Results

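The 3 mouse genes of the miR-26 family, Mir26a-1, Mir26a-2 and Mir26b, were taken by symbol from GENCODE M21 and matched by Ensembl gene identifier, and all 3 were present among the 2202 gene identifiers counted. The libraries were microRNA sequencing of inserts under 30 nt from gastrocnemius, a fast-twitch-rich muscle of the lower hindlimb. The mice were male B6CASTF1/J hybrids, whose parents are C57BL/6J and the wild-derived CAST/EiJ, at 2 months of age, and the labels name no treatment. There were 2 libraries of this single group, labelled biological replicates 1 and 2, each from a biosample of its own under 1 shared donor identifier. Whether that identifier names a strain or a single animal is not resolved by the labels, so each SD over the 2 libraries may be a spread between mice or within 1. No second condition was sampled, so the values answer how abundant each gene's reads were and how far the 2 libraries differed.

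MicroRNAs are cut from hairpin precursors into short strands, of which the 5p or the 3p arm is loaded into Argonaute and pairs with messenger RNAs through its seed, bases 2 to 8. The miR-26 genes lie inside the genes of the small C-terminal domain phosphatases (Ctdsp1, Ctdsp2 and Ctdspl), enzymes that act on RNA polymerase II and on the retinoblastoma protein. In muscle, miR-26a is known for repressing Ezh2, a histone methyltransferase that holds back differentiation, and it accumulates as myoblasts differentiate.

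The mature sequences decide which reads can be assigned to which of the 3 genes, and are therefore shown first, from RefSeq (GRCm38.p6, the same assembly as mm10), with the seed in capitals. The RefSeq table held hairpins and both arms for all 3 genes.
miR-26a-5p (Mir26a-1 and Mir26a-2): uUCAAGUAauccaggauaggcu
miR-26b-5p (Mir26b): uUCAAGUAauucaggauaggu
miR-26a-1-3p (Mir26a-1): cCUAUUCUugguuacuugcacg
miR-26a-2-3p (Mir26a-2): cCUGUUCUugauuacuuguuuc
miR-26b-3p (Mir26b): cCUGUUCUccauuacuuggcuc

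All 3 genes shared the 5p seed UCAAGUA, which no other of the 1679 mature mouse sequences in the table carried. The 5p arms of Mir26a-1 and Mir26a-2 were identical over all 22 bases. The 5p arm of Mir26b, 21 bases long, differed from miR-26a-5p at 2 positions, C11U and C21U, counted from 1 at the 5′ end with the miR-26a base first. The 3p arms were all distinct. Those of Mir26a-1 and Mir26a-2 differed at 6 of 22 positions, and those of Mir26a-2 and Mir26b at 4. The substitution A4G, between Mir26a-1 and Mir26a-2, falls in the 3p seed. Mir26a-2 and Mir26b therefore had the 3p seed CUGUUCU in common, shared with the 3p arms of Mir6932 and Mir7039, while the seed CUAUUCU belonged to Mir26a-1 alone. Mir6932 and Mir7039 had 0 counts in both libraries.

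The whole hairpins follow, with both annotated arms in capitals, since the miR-26a copies can be told apart only outside their shared 5p arm.
Mir26a-1: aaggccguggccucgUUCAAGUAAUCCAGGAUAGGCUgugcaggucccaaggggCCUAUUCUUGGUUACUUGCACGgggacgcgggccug
Mir26a-2: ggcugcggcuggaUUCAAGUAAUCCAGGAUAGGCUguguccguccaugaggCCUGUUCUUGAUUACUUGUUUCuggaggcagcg
Mir26b: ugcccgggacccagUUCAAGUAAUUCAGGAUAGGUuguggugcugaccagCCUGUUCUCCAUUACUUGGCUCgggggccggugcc

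The hairpins were 90, 84 and 85 bases long, so levels are compared between these genes without a correction for length. The longest identical stretch of Mir26a-1 and Mir26a-2 was 25 bases: it began at the first base of the 5p arm and ran 3 bases past its end. A read confined to that stretch matches both genes. A read is particular to 1 of them only if it starts before the arm, runs more than 3 bases beyond it, or comes from elsewhere in the hairpin, such as the 3p arm. Mir26b shared at most 11 identical bases in a row with Mir26a-1 and 10 with Mir26a-2. Over the whole hairpins, identity was 70% between Mir26a-1 and Mir26a-2 (63 of 90 aligned positions), 67.0% between Mir26a-1 and Mir26b and 64.4% between Mir26a-2 and Mir26b. In the RefSeq hairpins miR-26a-5p occurred in 2 and each of the other 4 arms in 1. The counts do not say which arm a read came from.

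**Figure D1:**
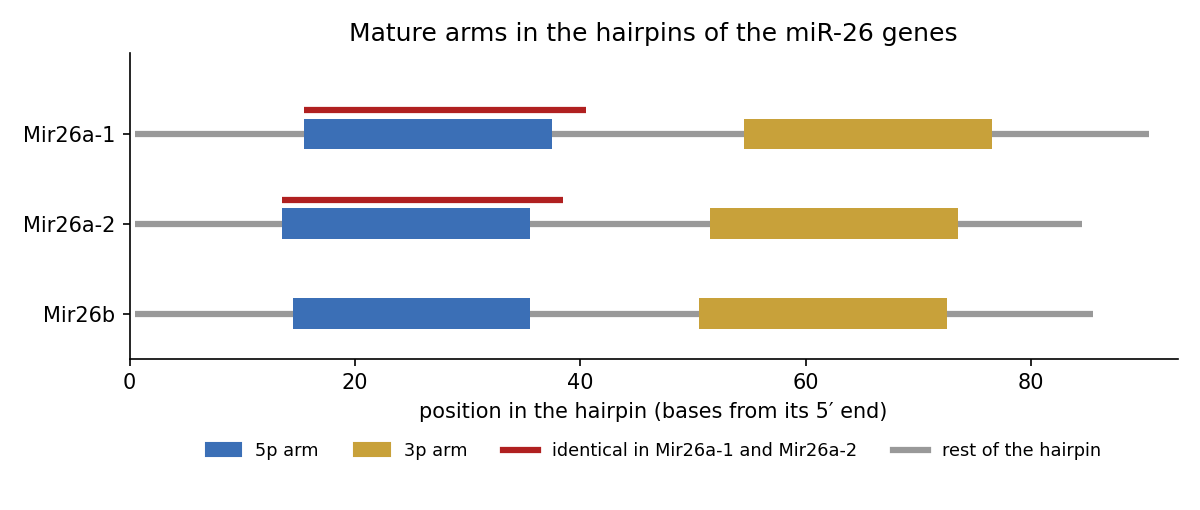
Map of the 3 miR-26 hairpins, with position in bases from the 5′ end on the x axis; blue bars are the 5p arms, yellow bars the 3p arms, and red lines the longest stretch identical in Mir26a-1 and Mir26a-2. The red stretch of 25 bases covers the whole 5p arm of both miR-26a genes and none of their 3p arms.

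In the mm10 assembly, Mir26b (ENSMUSG00000065468.1) lies on chromosome 1, 74394310 to 74394394, plus strand, inside Ctdsp1. It occupies intron 4 of the principal transcript of Ctdsp1, an intron of 564 bases. Mir26a-1 (ENSMUSG00000065513.1) lies on chromosome 9, 119031796 to 119031885, plus strand, in intron 5 of the principal transcript of Ctdspl, which is 3283 bases long. Mir26a-2 (ENSMUSG00000065430.1) lies on chromosome 10, 126995530 to 126995613, plus strand, in intron 5 of the principal transcript of Ctdsp2, 1946 bases long and ending 241 bases after the hairpin. All 3 hosts are on the strand of their microRNA. Mir26a-2 is not purely intronic in this annotation: 2 shorter Ctdsp2 transcripts begin at its last base, so that 1 base of the hairpin is also exonic, and in the protein-coding one of these this base is in the 5′ untranslated region. No annotated exon of a host overlapped Mir26a-1 or Mir26b.

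Over gene rows, replicate 1 held 638779 counts and replicate 2 held 2272132, or 17.2% and 16.1% of all reads. Multi-mapping reads, 75.2% and 74.4% of the total, were left out of the gene counts. Levels below are counts per 1000000 counts of the library's total over genes (CPM). A defining list of 9 muscle fibre microRNAs was detected in full (2 CPM or more in both libraries), beside 303 of all 2202 genes. It summed to 22884 CPM in replicate 1 and 52158 in replicate 2, most of it from Mir206 (20325 and 48078 CPM). Mir1a-1, Mir1a-2, Mir133a-1 and Mir133a-2 come as copies with the same leading microRNA, so reads matching both copies are missing from the sum. The sum therefore does not give the share of miR-206 among muscle microRNAs. Of the 9 listed genes, 4 were called higher in replicate 2, none lower and 5 not called, and their median log2 ratio was 0.04. Over all tested genes, 23.2% were called higher and 17.4% lower. Of 8 genes of microRNAs typical of other tissues, 3 had no count, and the list summed to 47.0 and 55.9 CPM. Those 3 are genes of miR-9 and miR-124, which also come as copies, so reads matching several copies are missing. Whether these microRNAs were absent cannot be read from the counts. Endothelial Mir126a had 81286 and 129798 CPM, and the pair of vascular smooth muscle genes had 123068 and 81451. In bulk tissue, a change in the number of cells of a type and a change in RNA per cell cannot be told apart. The part of these differences in the values of the miR-26 genes was not tested.

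By reads placed at 1 gene, Mir26b, in Ctdsp1, was one of the most abundant microRNA genes of this muscle. Nearly all reads assigned to the family came from it. Multi-mapping reads are left out, so genes whose copies share a leading microRNA may stand higher than their rank shows. Mir26b had 25336 counts in replicate 1 and 104408 in replicate 2, which is 39663 and 45952 CPM. Both libraries placed it near the top, at rank 8 and rank 7 of all genes, and it ranked 7 by its mean of 42807 ± 4447 CPM (SD, n = 2). Its exact 95% Clopper-Pearson intervals were 39186 to 40145 CPM and 45680 to 46225 CPM. They did not overlap, so the libraries were farther apart than counting error. The mean corresponds to 4.28% ± 0.445 of all counts assigned to genes. Intervals cover the counting error of reads only. PCR copies of a molecule counted as separate reads would add spread that the intervals do not cover.

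Mir26a-2, in Ctdsp2, was low by this count and differed between the libraries. It had 19 counts in replicate 1 and 176 in replicate 2, or 29.7 and 77.5 CPM, a mean of 53.6 ± 33.7 CPM (SD, n = 2). Its intervals, 17.9 to 46.5 CPM and 66.4 to 89.8 CPM, did not overlap. It ranked 192 in replicate 1 and 160 in replicate 2.

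Mir26a-1, in Ctdspl, was low as well. It had 24 counts in replicate 1 and 111 in replicate 2, or 37.6 and 48.9 CPM, a mean of 43.2 ± 7.98 CPM (SD, n = 2). Its intervals, 24.1 to 55.9 CPM and 40.2 to 58.8 CPM, overlapped. The ranks were 183 and 179. With 24 and 19 counts, counting error alone was 20.4% of the value for Mir26a-1 and 22.9% for Mir26a-2 in replicate 1, against 0.628% for Mir26b.

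The miR-26a values are the reads that could be placed at 1 gene. Reads of the shared 5p arm that match both genes are not among them, so the level of miR-26a itself cannot be read from them.

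**Figure D2:**
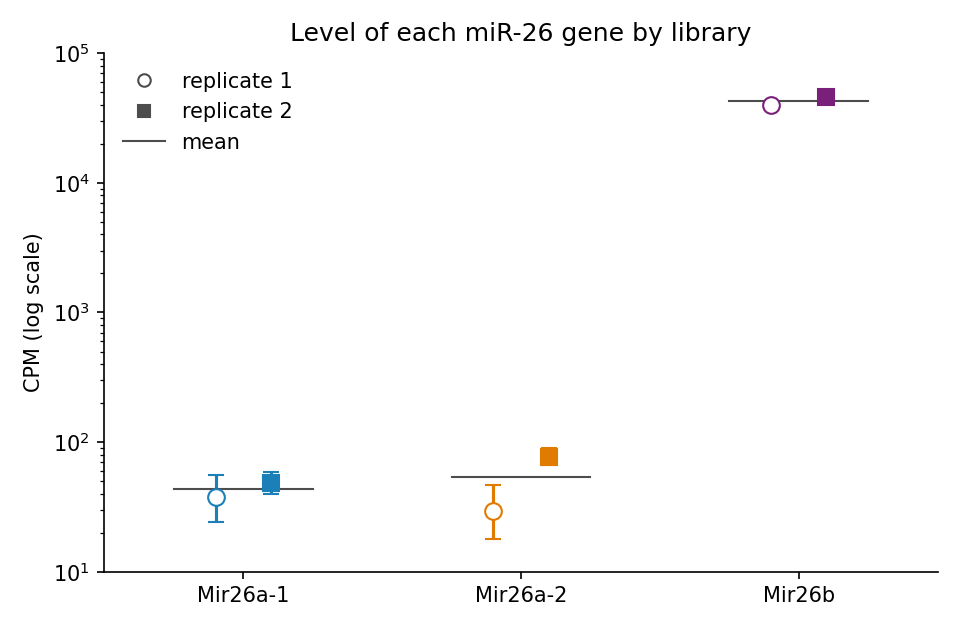
CPM of each miR-26 gene (log axis) in replicate 1 (open circles) and replicate 2 (filled squares), with exact 95% intervals of counting error and a line at the mean of the 2 libraries. Mir26b lies at 39663 and 45952 CPM, and both miR-26a genes lie below 100 CPM.

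The order of the counts placed at 1 gene was Mir26b, then the miR-26a genes. Reads that match both miR-26a genes are missing from their counts. The folds of Mir26b below therefore compare these counts only, and do not give its level relative to miR-26a. Mir26b had 1056 times the counts of Mir26a-1 in replicate 1 (exact interval 709 to 1648) and 941 times in replicate 2 (781 to 1144). Against Mir26a-2 it had 1334 times (854 to 2215) and 593 times (512 to 692). The ranges of the miR-26a genes over the libraries overlapped, and their order turned: Mir26a-2 had 0.792 times the counts of Mir26a-1 in replicate 1 (0.410 to 1.51) and 1.59 times in replicate 2 (1.24 to 2.03). Of the counts on the 2 miR-26a genes, Mir26a-2 took 44.2% in replicate 1 (19 of 43, exact interval 29.1 to 60.1%) and 61.3% in replicate 2 (176 of 287, 55.4 to 67.0%), with overlapping intervals.

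The 3 genes summed to 39730 CPM in replicate 1 and 46078 in replicate 2, a mean of 42904 ± 4488 CPM (SD, n = 2). Mir26b gave 99.8% of that sum in replicate 1 and 99.7% in replicate 2. The miR-26a genes together gave 0.169% and 0.274%, or 67.3 and 126 CPM. When genes were grouped by the number in their symbol, the miR-26 sum ranked 7 among 932 groups, at rank 7 in replicate 1 and 8 in replicate 2. Each group's sum leaves out the reads that its own copies share.

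**Figure D3:**
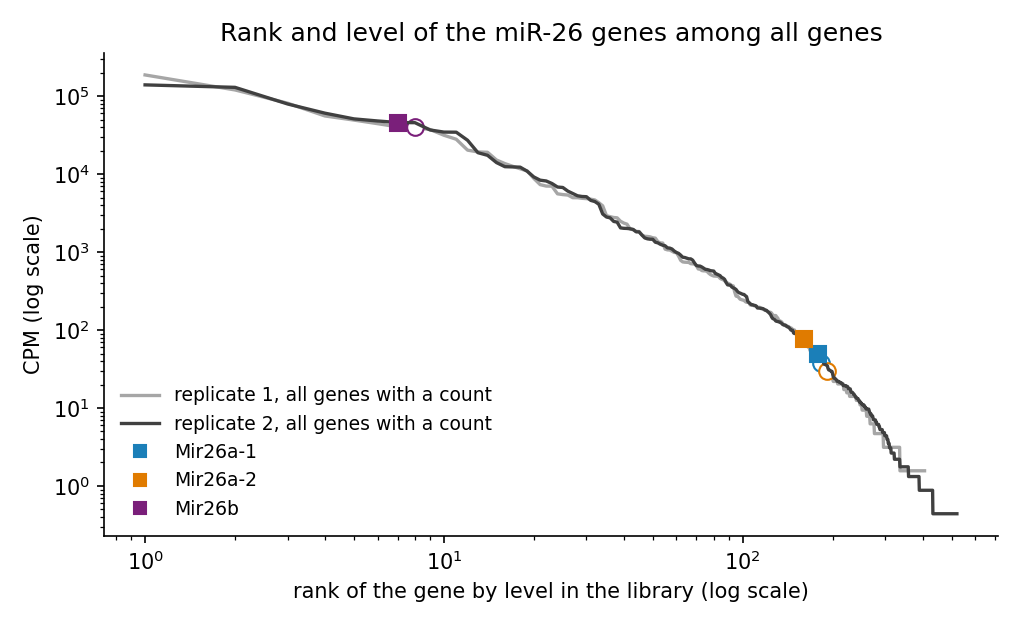
Level in CPM against rank for all genes with a count in replicate 1 (light line) and replicate 2 (dark line), both axes logarithmic, with the miR-26 genes as open circles (replicate 1) and filled squares (replicate 2). Mir26b sits at ranks 8 and 7, and the miR-26a genes between ranks 160 and 192.

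The neighbours of Mir26b in the order of mean level were Mir23b and Mirlet7g above it and Mir30a and Mirlet7i below. Mirlet7g, a let-7 gene, had 44393 and 45722 CPM, within the range of Mir26b, and Mir30a had 40421 and 34518 CPM, which overlapped that range as well. Mir23b (49380 and 51141 CPM) lay above both libraries' values of Mir26b, and Mirlet7i (37296 and 36837 CPM) below both. Mirlet7g and Mirlet7i were also the nearest genes when both libraries were considered, at distances of 0.163 and 0.331 on log2(CPM + 1) over the 2 libraries.

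Mir26a-2 stood between Mir341 and Mir184 above and Mir381 and Mir503 below, all with ranges that overlapped its own. The nearest genes to it over both libraries were Mir381 (21 and 158 counts) and Mir485 (23 and 175 counts), at distances of 0.208 and 0.268. Both had, like Mir26a-2, a higher CPM in replicate 2, which follows from choosing them by their values in these 2 libraries. Mir26a-1 stood between Mir6236 and Mir376b above and Mir450b and Mir188 below, again with overlapping ranges. The nearest genes to it were Mir6236 (27 and 108 counts) and Mir224 (27 and 122 counts), at distances of 0.170 and 0.213. With 2 libraries, such likeness describes a level and 1 ratio, and many genes near 50 CPM fall within it.

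All 3 miR-26 genes had the higher CPM in replicate 2, and for 2 of them the difference exceeded counting error. Ratios here are CPM in replicate 2 over replicate 1, and an exact two-sided binomial test was run on the 311 genes that had at least 10 counts in all, with Benjamini-Hochberg adjustment over the 311. Mir26b was 1.16-fold higher in replicate 2 (interval of counting error 1.14 to 1.18, log2 ratio 0.21, adjusted p = 1.81e-99 by the exact binomial test). Mir26a-2 was 2.60-fold higher (1.62 to 4.43, log2 ratio 1.35, adjusted p = 5.76e-05 by the same exact test). Mir26a-1 had a ratio of 1.30 (0.831 to 2.11, log2 ratio 0.36) and did not pass (adjusted p = 0.489, exact test). All 3 members passed the count minimum. The background is high: 40.5% of the 311 genes were called in either direction, 17.4% lower in replicate 2 and 23.2% higher. Under TMM scaling the calls split into 57 higher and 64 lower in place of 72 and 54, and the 3 miR-26 ratios stayed above 1.

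The test compares 2 libraries of 1 group with counting error, and is no test of mice or of a condition. With the spread between the libraries counted as noise (a coefficient of variation of 27.6% over 311 genes), edgeR's exact test called neither Mir26b (adjusted p = 1.0) nor Mir26a-2 (adjusted p = 0.691). That test called 2 genes in all, and 20 had an unadjusted p under 0.05. Its noise was estimated from the same 2 libraries that it compared, so only genes far outside the common spread could be called. The size of the Mir26b ratio was ordinary for its level. The absolute log2 ratio of Mir26b was below the median of all tested genes (0.39) and close to the median of the 19 genes with a mean of 10000 CPM or more (0.21). Mir26a-2 had a larger absolute log2 ratio than 91% of tested genes. Among the 49 genes with a mean of 30 to 100 CPM, which include both miR-26a genes, the median absolute log2 ratio was 0.46 and the quartiles were 0.22 and 0.68.

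**Figure D4:**
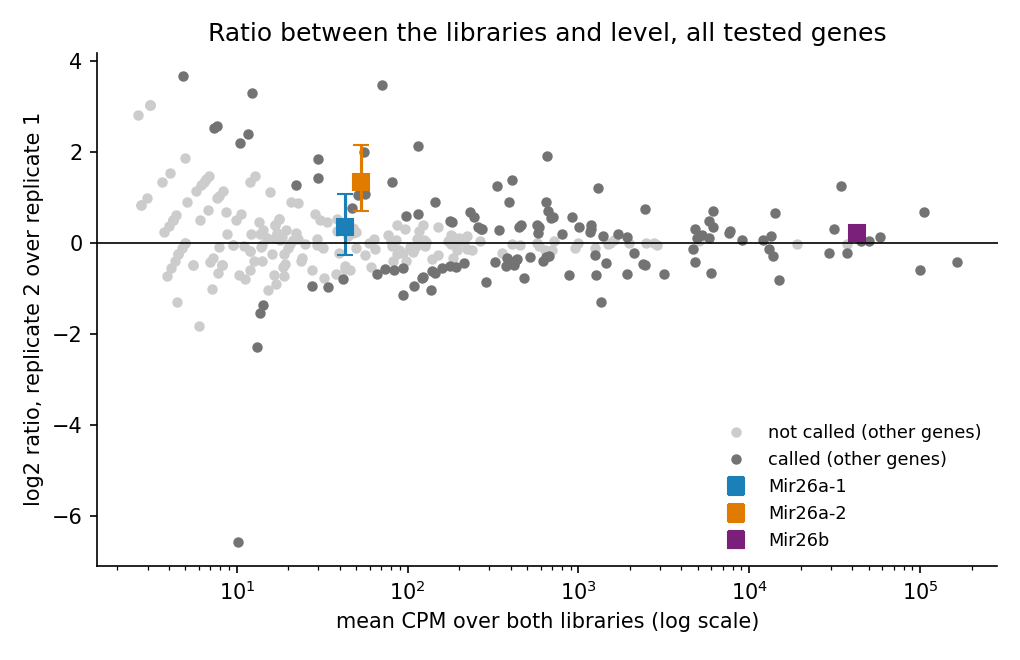
Log2 ratio of replicate 2 over replicate 1 against mean CPM (log axis) for the 311 tested genes; light points were not called and dark points were called by the exact binomial test, and squares with exact 95% intervals are the miR-26 genes. Mir26b lies close to 0 at high level (log2 ratio 0.21), and the miR-26a genes lie above 0, at 0.36 for Mir26a-1 and 1.35 for Mir26a-2.

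The annotated mature sequences of other genes were compared with those of the miR-26 genes, because sharing an arm removes reads from a gene's count. Of the counted genes, 657 had exactly 2 annotated arms in the RefSeq table. For 581 of them, Mir26b included, both arms were their own, and 193 of these were detected. Another 57, Mir26a-1 and Mir26a-2 included, shared 1 arm with another gene, and 34 were detected. The last 19 shared both, and 2 were detected. Mir26b ranked 3 among the genes with 2 arms of their own, where Mir23a was highest (58132 CPM). That class held 509040 CPM in replicate 1 and 548527 in replicate 2. Mir378a (163450 CPM) and Mir126a (105542 CPM), both above Mir26b in mean level, fell in none of these classes. The rank therefore holds only among the genes compared here. Mir26a-2 and Mir26a-1 ranked 20 and 22 among the 57 with 1 shared arm, below the median of the detected ones. Genes of 1000 CPM or more numbered 44 of the 581 without a shared arm. They numbered 4 of the 57 with 1 shared arm, with Mirlet7f-2 highest at 4790 CPM. The detected share was 33.22% without a shared arm, 59.65% with 1 and 10.53% with both. Whether sharing an arm lowers the level of a class was not tested. These are descriptions of the counted genes, without a test.

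**Figure D5:**
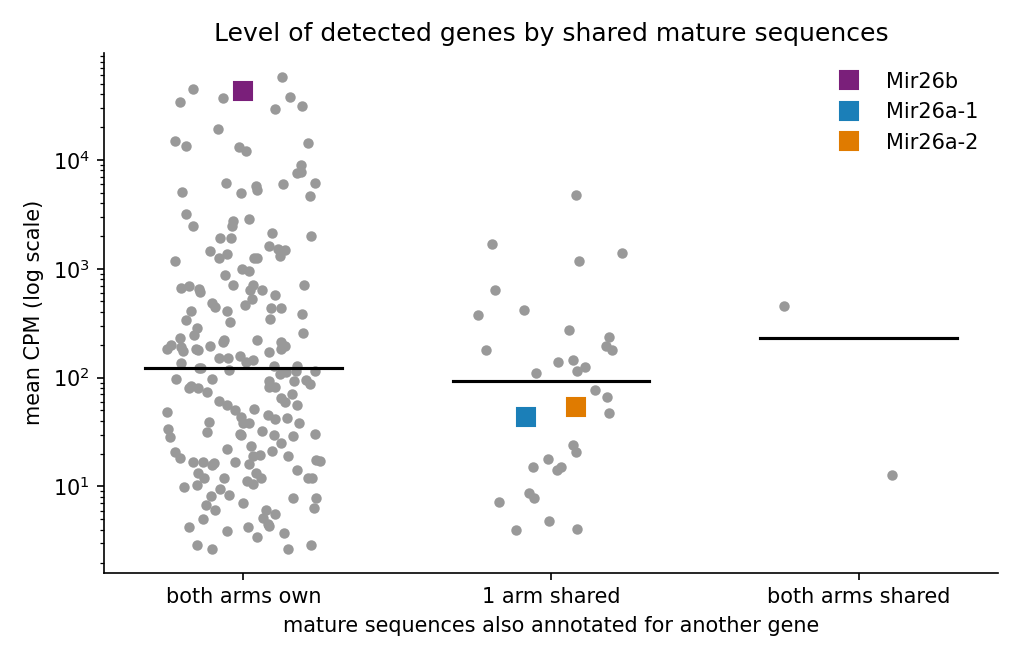
Mean CPM (log axis) of detected genes by whether their 2 annotated mature sequences are also annotated for another gene; grey points are genes, black lines medians, squares the miR-26 genes. Mir26b has rank 3 in its class, which does not hold the more abundant Mir378a and Mir126a. Both miR-26a genes lie below the median of the class with 1 shared arm.

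A list of 51 gene symbols that come as copies with the same leading microRNA, 49 of them found, held the closest parallels to the miR-26a genes. The most abundant were Mirlet7f-2 (4790 CPM), Mir196a-2 (1701), Mir16-1 (1386) and Mir128-1 (1182). The median was 17.9 CPM, and Mir26a-2 and Mir26a-1 would take positions 22 and 24 among 51 genes. Of 36 tested members, 8 were higher in replicate 2, 3 lower and 25 not called, with a median log2 ratio of 0.08. Over all tested genes the median was 0.04, with 23.2% higher and 17.4% lower. Among 16 pairs with both copies tested, the miR-26a copies differed 1.24-fold in mean CPM, position 3 from the smallest. Those of the other 15 pairs differed from 1.17-fold to 197-fold with a median of 3.07. The order of the miR-26a pair turned between the libraries, as did those of the miR-181a and miR-29b pairs. Averaging over opposite orders brings the copies of these pairs closer together. In replicate 2 alone, Mir26a-2 had 1.59 times the counts of Mir26a-1 (1.24 to 2.03). The summed level of the miR-26a pair, 96.8 CPM, was position 13 of the 16.

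A further list of 46 genes whose leading microRNA differs from that of a relative by a few bases, as miR-26b differs from miR-26a, had a median of 1314 CPM. In it 42 members were detected, and Mir26b would take position 4 among 47, after Mir23a, Mir23b and Mirlet7g. Of its 42 tested members, 12 were higher in replicate 2, 15 lower and 15 not called, with a median log2 ratio of -0.02, beside 40.5% called over all tested genes (23.2% higher and 17.4% lower).

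MicroRNAs in introns of protein-coding genes were compared next, since all 3 miR-26 genes are of this kind. By position, 969 of the counted genes lay inside a protein-coding gene on the same strand, and 138 of them were detected, with a median of 88.2 CPM. Mir26b ranked 5 among the 969, after Mir378a, Mir126a, Mir23b and Mirlet7g and before Mir22. Mir26a-2 and Mir26a-1 ranked 79 and 82. Among the 137 tested, 30 were higher in replicate 2, 29 lower and 78 not called, the miR-26 genes included, beside 23.2% higher and 17.4% lower over all tested genes. A chosen list of 32 such microRNAs was led by Mir30e (13059 CPM, in Nfyc), Mir139 (7683 CPM, in Pde2a), Mir191 (6113 CPM) and Mir151 (5821 CPM, in Ptk2). All of the list lay below Mir26b, but it was chosen without Mir378a, Mir126a, Mir23b and Mirlet7g, which ranked above Mir26b. Of the 27 tested members of the list, 11 were higher, 5 lower and 11 not called, with a median log2 ratio of 0.11. Over all tested genes, 40.5% were called. Mir191 and Mir425 of that list lie outside a protein-coding gene in this annotation.

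A chosen list of other microRNAs described as repressing Ezh2, a known target of miR-26a in muscle, had members up to 1910 CPM, the mean of Mir101b. The list is not complete: let-7 genes, also described as acting on Ezh2, were not in it. Of its 11 symbols 10 were found and 7 detected, and they summed to 6844 CPM in replicate 1 and 5546 in replicate 2, a mean of 6195 ± 918 CPM (SD, n = 2). The miR-138 and miR-124 genes of the list come as copies, so reads matching several copies are missing from these values. Mir101b had 2358 and 1463 CPM and Mir101a had 1569 and 963, and both were lower in replicate 2. Mir98, a let-7 relative, had 1594 and 1653 CPM and was not called. Mir214, a microRNA of muscle progenitors and fibroblasts, had 575 and 853 CPM and was higher in replicate 2. Over the list, 1 of 7 tested genes was higher, 3 were lower and 3 were not called, with a median log2 ratio of -0.30; over all 311 tested genes, 23.2% were higher and 17.4% lower.

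None of the miR-26 genes had a read on the opposite strand in either library, and a count of 0 leaves room for at most 4.70 CPM (replicate 1) or 1.32 CPM (replicate 2). The counts taken without regard to strand were the same as the strand-specific ones for all 3 genes (25336 and 104408 for Mir26b), so no read of theirs was set aside as ambiguous with a gene on the other strand. Their CPM rose on that scale because the library total fell to 447110 and 1591442. Set against all reads listed, Mir26b had 6831 per 1000000 reads in replicate 1 and 7419 in replicate 2, Mir26a-1 had 6.47 and 7.89, and Mir26a-2 had 5.12 and 12.5.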

How the data were processed

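MicroRNA sequencing of 2 gastrocnemius libraries was analysed from the deposited raw counts per gene, 1 table a library, made by the authors on mm10 with GENCODE M21, as the deposited description texts state. For aligner and counter, names and versions were not given in the sources used here. In each table there are 3 unnamed count columns, read from the values as unstranded, same strand and opposite strand. The same-strand column was used. Rows naming no gene (unmapped 5.97 and 6.93%, no feature 1.61 and 2.48%, multi-mapping 75.2 and 74.4% of reads) stayed out of library totals. One count was 1.57 CPM in replicate 1 and 0.440 CPM in replicate 2, so replicate 2, with 3.56 times the counts, is the more precise. CAST alleles were not analysed here.

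CPM used the total over gene rows. The exact binomial test used genes with 10 or more counts, a prior count of 0.5 for log2 ratios, and Benjamini-Hochberg adjustment at 0.05. It was tried on simulated counts that held counting error only. That setting leaves out the further spread between these libraries. The p-values measure only the difference between these 2 libraries. A count of 0 was given a limit of 3 counts. Detected means at least 2 CPM in each library. Hairpin identity came from global alignment. Tools were Python 3.11.15, scipy 1.17.1, R 4.3.3, edgeR 4.0.16 and DESeq2 1.42.0. Alternatives were TMM and DESeq2 scaling, the unstranded column, other totals, filters and prior counts, edgeR's exact test, and each library left out. Members, lists and tests were chosen with earlier results of these data known. Named genes are the members, their neighbours by mean CPM (2 above, 2 below), the 2 nearest over both libraries, up to 4 leading genes of each list, and genes sharing a member's seed. Mir425, Mir22, Mir378a, Mir126a and the Mir1a and Mir133a genes are named outside that rule.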

Additional observations from a re-analysis of the deposited data

How the results depend on the processing

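Of 56 recomputed values, 38 stayed the same, 16 moved, 2 lost their call and none reversed. The same meant a level, share or rank within 1 SD, or a ratio that kept its direction and call. For the count of differing genes it meant a value within a fixed fold of 126. Part of this tally was fixed in advance. With 2 libraries, a level or share from 1 library always lies within 1 SD of the mean. The share of Mir26b without regard to strand rests on the same counts, so it could not move. The prior count does not enter the p-value, so it could not change a call. The 2 lost calls came from edgeR's exact test, which took its noise from the 2 libraries it compared. They therefore decide nothing about those genes. With counts taken without regard to strand, the mean level was 61.7 CPM for Mir26a-1, 61136 for Mir26b and 61274 for the sum, and the ranks of Mir26a-1 and Mir26b were 162 and 5. Per 1000000 of all reads listed, the values were 7.18 (Mir26a-1), 8.82 (Mir26a-2), 7125 (Mir26b) and 7141 (sum). With the gene of highest mean level left out of the total they were 51.5 (Mir26a-1), 51106 (Mir26b) and 51221 (sum). These follow from the smaller or larger totals. With 1 library left out at a time, ranks ran from 179 to 183 for Mir26a-1, from 160 to 192 for Mir26a-2 and from 7 to 8 for Mir26b. The level of Mir26a-2, 53.6 CPM over both, was 29.7 CPM without replicate 2 and 77.5 CPM without replicate 1. The share of Mir26b in the family's counts placed at 1 gene stayed between 99.7 and 99.8%. The log2 ratio of Mir26a-2 ran from 1.25 to 1.37 and that of Mir26b from 0.15 to 0.22 over 6 alternatives. With edgeR's exact test they were 1.37 and 0.21, with adjusted p of 0.691 and 1.0, over alternatives whose adjusted p ran from 4.07e-05 to 0.691 and from 1.33e-108 to 1.0. The count of differing genes, 126, was 2 by that test, 28 with at least a 2-fold ratio, and between 114 and 126 otherwise. A ratio needs both libraries, so none was computed with 1 left out. No paired analysis was possible because there is 1 group. The miR-26a genes rest on 24 and 19 counts in replicate 1, and reads of their shared 5p arm are missing at any depth.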
